A study of Mus musculus with 2 samples.

Results

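The genes described here are 8 members of the cytotoxic and natural killer (NK) cell type programme, chosen by symbol from the 32285 genes of the deposited count tables: the granzymes Gzma, Gzmb and Gzmk, the granule membrane protein Nkg7, the lectin-like receptors Klrg1 and Klrk1, and the intracellular serpins Serpinb9 and Serpinb6b. They were followed in CD4 T cells from the lungs of mice with house dust mite airway inflammation. Donor mice were wild type. They were given house dust mite extract by the airway on day 0 and again on days 7 to 11; this allergen is widely used to provoke an asthma-like type 2 response. On day 14 their lung CD4 T cells were loaded with Cell Trace Violet, a dye that is diluted at each division, and transferred into hosts that were either MARCH1-/- or wild type (C57BL/6). After a challenge of the hosts with the extract, donor cells with low dye, which had gone through divisions, were recovered from the lung by sorting at day 4. MARCH1, a ubiquitin ligase, removes MHC class II and CD86 from the surface of antigen-presenting cells, so only the surroundings of the donor cells differed in genotype. The MARCH1-/- host and the WT host gave 1 library each. The labels do not say how many animals lie behind each library.

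Granzymes are serine proteases stored in the granules of killer cells. Perforin lets them into a target cell, where they start apoptosis, and clade B serpins in the cytosol of the killer cell inactivate granzymes that leak from its granules. KLRG1 is an inhibitory receptor of cadherins on strongly stimulated T and NK cells, and also of a terminally differentiated subset of tissue regulatory T cells. NKG2D, the product of Klrk1, binds stress-induced ligands and signals through the adaptors encoded by Hcst and Tyrobp. CD4 T cells do not usually carry the whole programme: granzyme B is also made by activated regulatory T cells, which express the transcription factor Foxp3, and KLRG1 regulatory cells in tissues often carry ST2, the interleukin 33 receptor encoded by Il1rl1.

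The members are protein-coding genes of GRCm38: Gzma (ENSMUSG00000023132, chromosome 13, 113093825 to 113100981) and Gzmk (ENSMUSG00000042385, chromosome 13, 113171608 to 113225908) stand close together, as do Serpinb6b (ENSMUSG00000042842, chromosome 13, 32965209 to 32979067) and Serpinb9 (ENSMUSG00000045827, chromosome 13, 33003250 to 33017957). Gzmb (ENSMUSG00000015437) lies on chromosome 14, 56258838 to 56262260, and Nkg7 (ENSMUSG00000004612) on chromosome 7, 43437073 to 43438249. Klrg1 (ENSMUSG00000030114, 122270596 to 122282882) and Klrk1 (ENSMUSG00000030149, 129610323 to 129623864) are on chromosome 6. In GENCODE M21 none of them overlaps another gene on its strand.

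Gzmb and Klrk1 are shown with the 250 bases before their RefSeq start (build GRCm38.p6). They were chosen because Gzmb was higher in cells with Foxp3, and Klrk1 in cells with type 1 markers, than in other cells, as described further on. The stretch of Gzmb lies at chr14:56262335-56262584 and that of Klrk1 at chr6:129623865-129624114, both on the minus strand and both written 5' to 3'. Capitals mark the letters TGTGGT, the core bound by RUNX factors, on either strand, and TGANTCA, the AP-1 motif.
Gzmb: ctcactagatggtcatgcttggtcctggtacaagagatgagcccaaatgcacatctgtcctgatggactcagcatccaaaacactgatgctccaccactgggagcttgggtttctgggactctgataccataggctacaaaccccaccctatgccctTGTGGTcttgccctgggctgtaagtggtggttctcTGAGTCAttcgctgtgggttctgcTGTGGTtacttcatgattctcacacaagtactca
Klrk1: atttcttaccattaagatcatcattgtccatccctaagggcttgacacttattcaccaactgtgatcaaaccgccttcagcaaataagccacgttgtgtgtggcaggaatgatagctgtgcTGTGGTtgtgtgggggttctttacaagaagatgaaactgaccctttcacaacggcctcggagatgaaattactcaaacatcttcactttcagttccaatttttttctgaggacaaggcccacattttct
Both stretches held TGTGGT, at 93 and 34 bases before the start of Gzmb and at 129 bases before that of Klrk1. The AP-1 letters were found in Gzmb alone among the 7 members with an entry, as TGAGTCA 58 bases before its start. RUNX letters stood in 4 of those 7 members (Klrk1, Nkg7, Gzma and Gzmb) and in 14.0% of all 32851 promoters of the same length. AP-1 letters stood in 6.75% of them, the T-box letters GGTGTGA in 3.33% (Nkg7 and Gzmk among the members) and the GATA letters AGATAA in 9.99% (no member). The motifs were searched on both strands, and none of them overlapped another in the stretches shown. The RefSeq starts of Klrk1, Serpinb9 and Gzma matched a GENCODE M21 transcript, but those of Gzmb, Nkg7, Gzmk and Serpinb6b did not. The Gzmb stretch comes no nearer than 56262335, while GENCODE M21 places the gene up to 56262260. Distances thus hold for the RefSeq start only. A match of letters describes the sequence and is no evidence of binding.

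The unit of measurement is the unique molecular identifier (UMI), which counts captured mRNA molecules. Levels are UMIs summed over cells per 1000000 summed UMIs (CPM). The kit reads only the 3' end of each molecule, so transcript length does not enter where levels of different genes are set side by side. How well each gene was captured was not measured. Cells were barcodes with at least 500 UMIs, at least 250 genes and at most 10% mitochondrial UMIs: 156 in the MARCH1-/- host library and 352 in the WT host library, with a median of 8017 and 6086.5 UMIs per cell and 1575581 and 2571048 UMIs in all. No barcode was shared between the cells of the libraries. No test was possible without replicate libraries, and the 95% intervals in parentheses cover counting error only. Where a few cells hold most UMIs of a gene, they are too narrow. A UMI of at least 1 of 6 listed CD4 T cell markers was seen in 156 of 156 and 351 of 352 cells. Cd4 itself was not seen in all of them: among cells with Nkg7 it was seen in 64 of 79 and 160 of 184. The marker count thus does not show that every cell was a CD4 T cell. All 5 NK markers (Ncr1, Klrb1c, Klra4, Klra8 and Klra9) and Cd8a were at 0 UMIs in both libraries, while Cd8b1 had 16 and 30 UMIs. Cycling cells, those with UMIs of at least 2 of 8 proliferation markers, made up 82 of 156 (52.6%) and 143 of 352 (40.6%). The median gene with at least 50 UMIs had a log2 ratio of 0.25 (MARCH1-/- host over WT host, as in all ratios between hosts). March1 had 0 UMIs in both libraries, which checks nothing because the donor cells were wild type.

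Over all cells the programme was led by Nkg7 and Klrg1, with Gzmb next, and the other granzymes were close to absent. Nkg7 was at 391 CPM in cells from MARCH1-/- hosts and 372 CPM in those from WT hosts, from 616 and 956 UMIs. Klrg1 was at 125 and 96.5 CPM (197 and 248 UMIs), and Gzmb at 57.8 CPM (46.5 to 70.9) and 44.0 CPM (36.2 to 52.8), from 91 and 113 UMIs. Klrk1, Serpinb9 and Serpinb6b lay between 10.8 and 18.7 CPM in both libraries. The intervals of Nkg7, Klrg1 and Gzmb did not overlap one another in either library, while those of Klrk1, Serpinb9 and Serpinb6b overlapped. At least 1 member was seen in 111 of 156 cells (71.2%) and in 239 of 352 (67.9%), and at least 3 members in 14 and 20 cells.

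**Figure D1:**
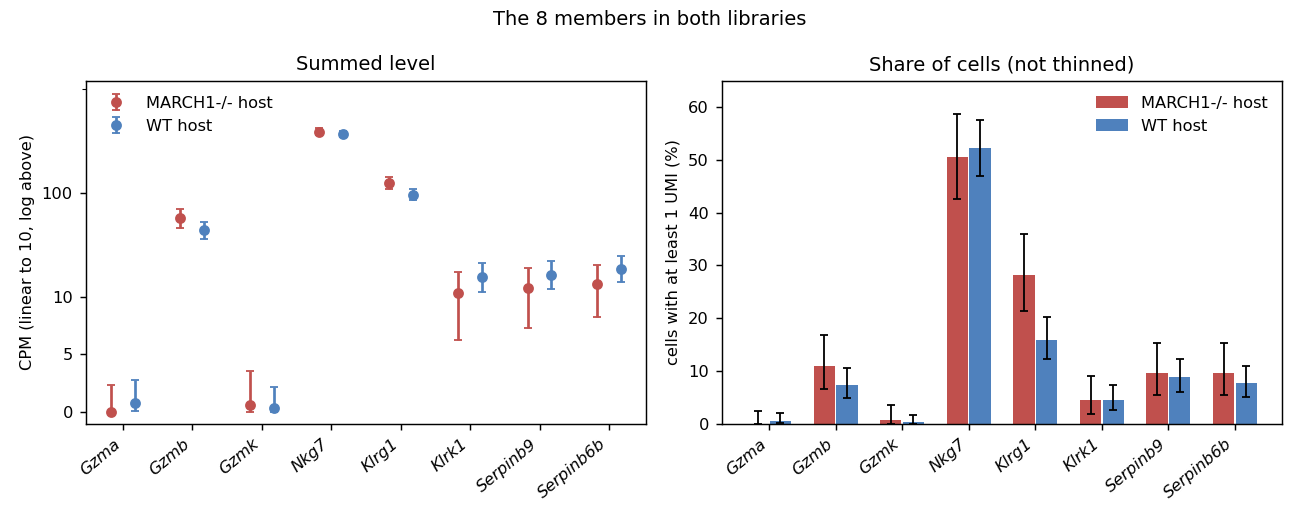
Level (CPM, left, linear up to 10 and logarithmic above) and share of cells with at least 1 UMI (percent, right) of the 8 members in cells from MARCH1-/- hosts (red) and WT hosts (blue), with 95% counting intervals. Nkg7 was seen in 50.6% and 52.3% of cells and Gzma and Gzmk in under 1%; the bars that stand apart most are those of Klrg1, at 28.2% and 15.9%.

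Between hosts, 0 of the 6 members with at least 50 UMIs over both libraries differed by 2-fold or more, against 9.78% of all 6762 genes with that many UMIs. The log2 ratios were 0.39 (-0.02 to 0.81) for Gzmb, 0.37 (0.10 to 0.65) for Klrg1 and 0.07 (-0.08 to 0.22) for Nkg7. They were -0.53 (-1.44 to 0.32) for Klrk1, -0.44 (-1.30 to 0.38) for Serpinb9 and -0.49 (-1.30 to 0.28) for Serpinb6b. Klrg1 alone had an interval clear of 0, and it lay 0.12 above the median gene. The members' median ratio was -0.18, against 0.25 for all genes tested, with 3 of the 6 above 0. The summed level of Gzma, Gzmb and Gzmk was 58.4 CPM in cells from MARCH1-/- hosts and 45.1 CPM in those from WT hosts, a log2 ratio of 0.37 (-0.04 to 0.78), and Gzmb supplied 91 of its 92 and 113 of its 116 UMIs.

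The Gzmb and Klrg1 values moved with the cells taken. With cycling cells left out, Gzmb stood at a log2 ratio of 1.01 (61 and 72 UMIs) and Klrg1 at 0.89 (102 and 131 UMIs). Among cycling cells Gzmb was at 26.3 and 26.7 CPM and Klrg1 at 83.3 and 76.1 CPM, ratios of -0.02 and 0.13. With every cell weighted equally Klrg1 was at 0.95. Cycling cells held more UMIs each (medians of 11882.5 and 9457, against 5697.5 and 4512 in other cells), and the part of their number in these ratios was not tested.

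Gzmb, the granzyme that cleaves caspases and their substrates, was rare and uneven. A UMI of it was seen in 17 of 156 cells from MARCH1-/- hosts (10.9%, 6.48 to 16.9) and 26 of 352 from WT hosts (7.39%, 4.88 to 10.6). With each cell thinned to 1000 UMIs the shares were 5.77% and 2.35% in a single draw, where 5.30% and 2.77% are expected over all draws. The 5 cells with the most Gzmb held 64.8% and 58.4% of its UMIs. The highest cell had 18 UMIs in the MARCH1-/- host library and 37 in the WT host library. Free RNA was estimated as the mean over barcodes with at most 100 UMIs. The highest estimate of any member was a UMI in 0.27% of cells (Nkg7 in the WT host library). The Gzmb shares lay above this mean, which is no upper bound.

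Klrg1 was spread over more cells than Gzmb. It was seen in 44 of 156 cells from MARCH1-/- hosts (28.2%, 21.3 to 36.0) and 56 of 352 from WT hosts (15.9%, 12.2 to 20.2), intervals that did not overlap. Thinned, it was seen in 22 of 156 (14.1%, 9.05 to 20.6) and 20 of 341 cells (5.87%, 3.62 to 8.91), with 12.1% and 6.38% expected over all draws. Without cycling cells the thinned shares were 20.3% (11.8 to 31.2) and 6.03% (3.15 to 10.3), with 16.4% and 6.86% expected over all draws. Without cells that had a Foxp3 UMI they were 6.82% (3.16 to 12.5) and 4.04% (2.10 to 6.95), with 8.02% and 3.56% expected. Unthinned, the shares without those cells were 21.2% (14.6 to 29.2) and 11.4% (8.10 to 15.5). Both pairs of intervals without Foxp3 cells overlap, which does not show that the shares were alike. The highest cell held 20 and 19 UMIs, and the 5 highest 32.5% and 31.9% of the total.

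**Figure D2:**
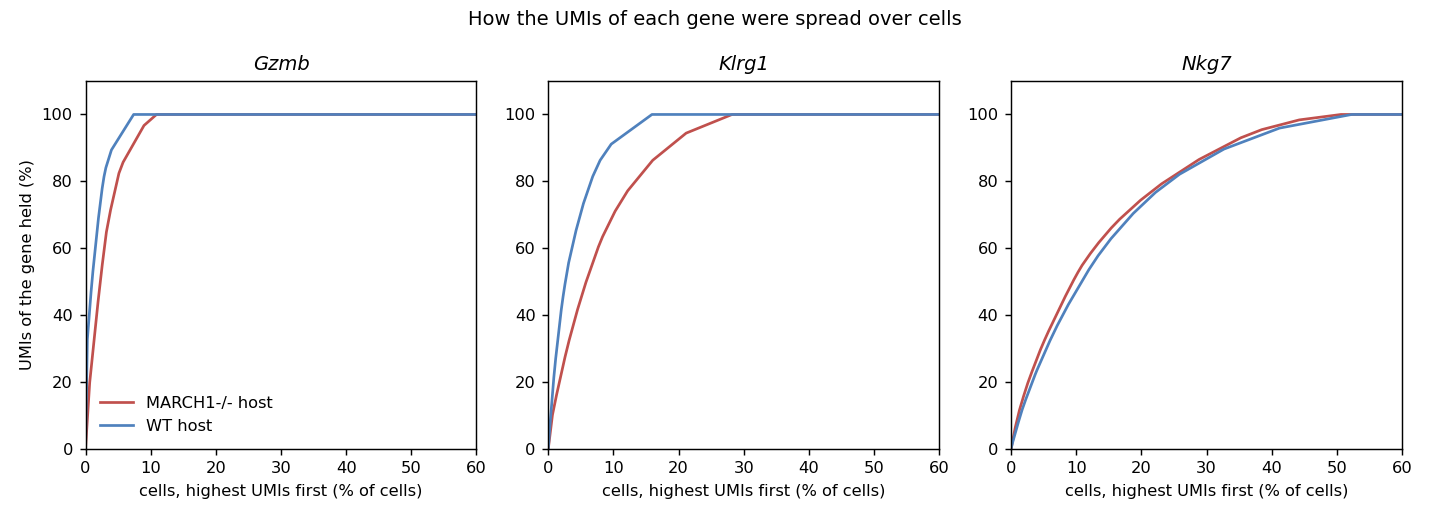
Cumulative share of a gene's UMIs (percent) held by cells ranked from the most to the fewest UMIs of that gene (percent of cells), for Gzmb, Klrg1 and Nkg7 in cells from MARCH1-/- hosts (red) and WT hosts (blue). The curves of Gzmb reach their end at 10.9% and 7.39% of cells, those of Klrg1 at 28.2% and 15.9%, and those of Nkg7 at 50.6% and 52.3%.

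The levels of Gzmb and Klrg1 were higher in cells with Foxp3 than in cells without it. Cells with Foxp3 held 56 of 91 Gzmb UMIs in the MARCH1-/- host library and 91 of 113 in the WT host library, and 86 of 197 and 140 of 248 Klrg1 UMIs. In the 14 cells from MARCH1-/- hosts that had UMIs of both Foxp3 and Il1rl1, Gzmb was at 467 CPM (344 to 619), and in the 15 such cells from WT hosts at 377 CPM (286 to 489), where 1 cell held 37 of the 57 UMIs. In the 10 and 31 cells with Foxp3 alone it was at 65.2 CPM (28.2 to 129) and 162 CPM (112 to 227). In the 55 and 106 cells with Il1rl1 alone it was at 10.4 CPM (3.83 to 22.7) and 4.88 CPM (1.58 to 11.4), and in the 77 and 200 cells with neither at 37.4 CPM (25.1 to 53.8) and 14.3 CPM (8.36 to 23.0). Without the cell with the most Gzmb of each library, an alternative chosen after seeing the data, cells with both markers from WT hosts were at 138 CPM (84.5 to 214), below those with Foxp3 alone, and cells with neither from MARCH1-/- hosts at 14.7 CPM (7.35 to 26.3). The order of the groups with both markers and with Foxp3 alone thus turned on 1 cell in the WT host library. The intervals of cells with Il1rl1 alone and with neither overlapped in the WT host library, and without that cell in the MARCH1-/- host library too.

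Klrg1 formed a more gradual series over the same groups. It was at 544 and 622 CPM in cells with both markers, at 245 and 220 CPM with Foxp3 alone, at 144 CPM (115 to 179) and 95.6 CPM (77.6 to 116) with Il1rl1 alone, and at 36.1 CPM (24.0 to 52.2) and 8.44 CPM (4.05 to 15.5) with neither. It was seen in 10 of 14 and 11 of 15 cells with both, and in 7 of 77 and 9 of 200 with neither. The order of the 4 groups was the same in both libraries, and also without the highest Klrg1 cell of each, where cells with both were at 376 and 519 CPM. The groups with Foxp3 are small, the depth of the cells with Foxp3 alone differed (medians of 8082 and 4508 UMIs), and detection of Foxp3 by a single UMI misses cells that express it.

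**Figure D3:**
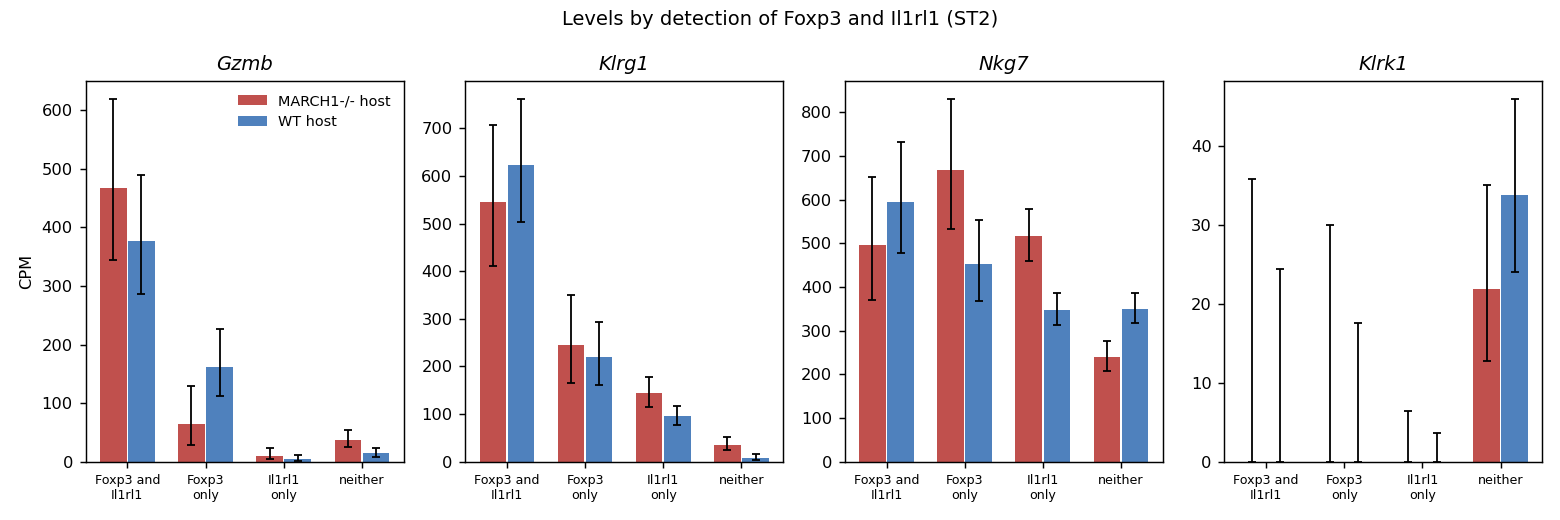
Level (CPM) of Gzmb, Klrg1, Nkg7 and Klrk1 in cells with UMIs of Foxp3 and Il1rl1, of Foxp3 only, of Il1rl1 only or of neither, in cells from MARCH1-/- hosts (red) and WT hosts (blue), with 95% counting intervals. Klrg1 is highest in cells with both, as is Gzmb, which in the WT host library rests on 1 cell with 37 of 57 UMIs; Nkg7 is present in every group, and every Klrk1 UMI lies in cells with neither marker.

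A few cells carried much of this. In each library 4 of the 5 cells with the most Gzmb had Foxp3, and 4 and 3 of them had Il1rl1. The cell with 37 Gzmb UMIs in the WT host library had 6646 UMIs in all, with 3 of Foxp3 and 2 of Il1rl1, and it was also the highest Klrg1 cell of that library (19 UMIs). The highest Gzmb cell of the MARCH1-/- host library, with 18 UMIs among 27116, had neither marker, was cycling and also held 26 Nkg7 UMIs. Among cells with Foxp3, Gzmb was at 248 CPM in the MARCH1-/- host library and 252 CPM in the WT host library (log2 ratio -0.02, -0.53 to 0.47), and Klrg1 at 381 and 388 CPM (-0.03, -0.43 to 0.37). Among cells without it, the log2 ratio of Gzmb was 1.38 (0.57 to 2.22; 35 and 22 UMIs), and that of Klrg1 was 0.75 (0.36 to 1.15; 111 and 108 UMIs). Leaving out the highest Gzmb cell of each library moved the Gzmb ratio to 0.70 with Foxp3 and 0.37 without. Leaving out instead the highest of the cells compared in each library gave 0.42 with Foxp3 and 1.02 without (17 and 14 UMIs), and the Klrg1 ratio without Foxp3 was 0.87.

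The cells were also grouped by helper T cell markers, each by at least 1 UMI, into classes that overlap: type 2 cytokine (Il4, Il5 or Il13; 57 and 137 cells), ST2 without those cytokines (27 and 35), regulatory (Foxp3; 24 and 46) and type 1 (Ifng, Tbx21 or Ccl5; 22 and 77). ST2 and regulatory shared 14 and 11 cells. Each class was set against all other cells of its own library for the 3 members with at least 50 UMIs in each library, Gzmb, Klrg1 and Nkg7.

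In the regulatory class 2 of the 3, Gzmb and Klrg1, were at least 2-fold higher than in other cells of both libraries, where 2.22% and 2.10% of all tested genes were. Gzmb was at 248 CPM in the class and 25.9 CPM in other cells from MARCH1-/- hosts (log2 ratio 3.26, 2.62 to 3.91), and at 252 and 9.95 CPM in those from WT hosts (4.66, 3.98 to 5.41). Klrg1 was at 381 and 82.2 CPM in the MARCH1-/- host library (2.21, 1.79 to 2.63) and at 388 and 48.9 CPM in the WT host library (2.99, 2.62 to 3.37). The same pair was at least 2-fold higher in the ST2 class, against 3.51% and 1.0% of genes. There Gzmb was at 272 CPM against 28.2 CPM in other cells from MARCH1-/- hosts, and at 172 CPM against 26.2 CPM in those from WT hosts (log2 ratios 3.27 and 2.71); without the WT host cell with 37 UMIs the second was 1.08. Klrg1 was at 460 CPM against 78.7 CPM and at 283 CPM against 70.5 CPM (log2 ratios 2.55 and 2.0). Of the Gzmb UMIs of the ST2 class, 48 of 52 in the MARCH1-/- host library lay in the 14 cells that also had Foxp3. In the WT host library all 54 lay in 4 cells, each with Foxp3. Of the Klrg1 UMIs of the ST2 class, 56 of 88 in the MARCH1-/- host library lay in the 14 cells that also had Foxp3. In the WT host library most of the 89 lay in the 11 cells that also had Foxp3. The ST2 results for Gzmb and Klrg1 are thus not separate from those of the regulatory class.

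In the type 2 cytokine class 1 of the 3 members, Gzmb, was at least 2-fold lower than in other cells, in both libraries, where 2.57% and 2.33% of genes were. It was at 2.85 CPM (2 UMIs in 57 cells) against 102 CPM in other cells from MARCH1-/- hosts, and at 6.47 CPM (8 UMIs in 137 cells) against 78.6 CPM in those from WT hosts, log2 ratios of -5.16 (-8.23 to -3.27) and -3.60 (-4.85 to -2.57). The class had the deeper cells (medians of 10009 and 7987 UMIs, against 6430 and 4828 in other cells). The other cells included the cells with Foxp3, apart from 6 of 46 in the WT host library. In the MARCH1-/- host library cells with Foxp3 held 56 of the 89 Gzmb UMIs of the other cells. In the WT host library they held 91 of all 113. The type 2 class was not set against other cells without Foxp3. Klrg1 was at 86.8 and 85.8 CPM in the type 2 class of the MARCH1-/- host and WT host libraries, nearer to the other cells (log2 ratios -0.84 and -0.31).

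In the type 1 class 1 of 3 was at least 2-fold lower in each library, against 4.48% and 1.58% of genes: Klrg1 from MARCH1-/- hosts (40.8 CPM against 137 CPM in other cells, 8 UMIs in the class) and Gzmb from WT hosts (12.2 against 53.0 CPM, 7 UMIs). That of Klrg1, a log2 ratio of -1.75, was -0.72 with every cell weighted equally and -0.88 without cycling cells. Among cycling cells 2 of 3 (Gzmb and Klrg1) were at least 2-fold lower in the MARCH1-/- host library and 1 of 3 (Gzmb) in the WT host library, against 7.33% and 4.41% of genes. The cycling log2 ratio of Gzmb was -2.42 and -1.38, and that of the WT host library was -0.35 without its highest Gzmb cell. That of Klrg1 in the MARCH1-/- host library, -1.49, was -0.65 after thinning.

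**Figure D4:**
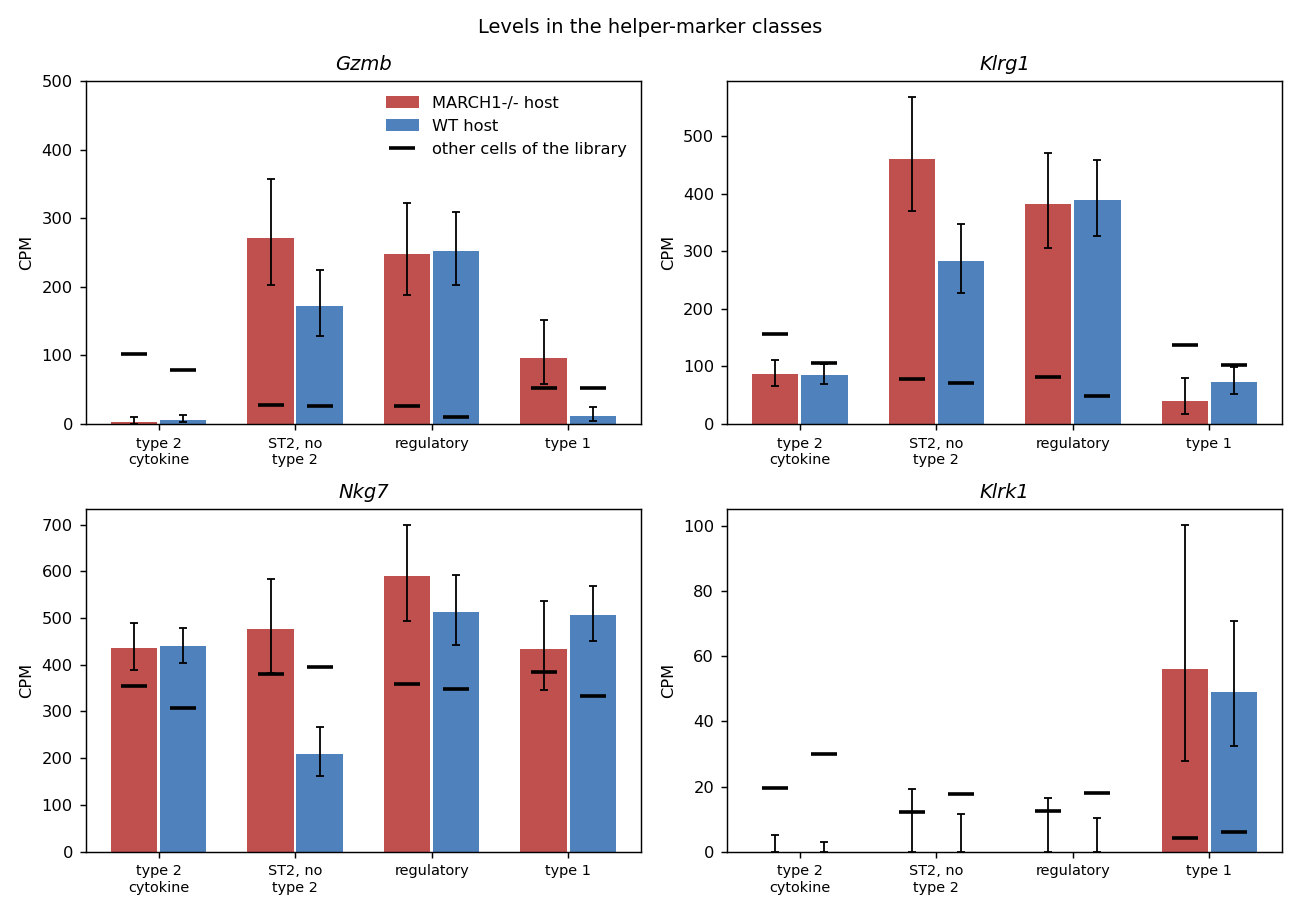
Level (CPM) of Gzmb, Klrg1, Nkg7 and Klrk1 in the 4 helper-marker classes of cells from MARCH1-/- hosts (red) and WT hosts (blue), with 95% counting intervals; black dashes give the level in all other cells of the same library. Gzmb and Klrg1 stand above the dashes in the ST2 and regulatory classes, and Klrk1 in the type 1 class.

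Nkg7, a protein of cytotoxic granule membranes that takes part in their release, was the broadest member. It was seen in 79 of 156 cells (50.6%) and 184 of 352 (52.3%), and in 27.6% and 26.4% after thinning. The 5 highest cells held 23.1% and 9.94% of its UMIs, and without them the log2 ratio between hosts was -0.11. Its level was 590 and 513 CPM in the regulatory class and 437 and 440 CPM in the type 2 cytokine class of the MARCH1-/- host and WT host libraries. In the type 1 class, where a cytotoxic programme is usually placed, it was at 433 and 507 CPM, and the intervals of the type 1 and type 2 classes overlapped in both libraries. In the ST2 class it was at 476 and 210 CPM, from 91 and 66 UMIs, a log2 ratio between hosts of 1.18 (0.71 to 1.66). The 5 highest cells of the class held 53 and 44 of those UMIs. Other cells were at 379 CPM from MARCH1-/- hosts (class over other cells 0.33, -0.01 to 0.65). Those from WT hosts were at 394 CPM (-0.91, -1.29 to -0.55). Nkg7 was the one member of the 3 that was not at least 2-fold higher in the ST2 class.

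Klrk1, which encodes the activating receptor NKG2D, followed another group of cells. It had 17 UMIs in 7 of 156 cells from MARCH1-/- hosts and 40 UMIs in 16 of 352 from WT hosts, or 10.8 CPM (6.29 to 17.3) and 15.6 CPM (11.1 to 21.2). In the type 1 class it was at 56.0 CPM (28.0 to 100) against 4.35 CPM in other cells from MARCH1-/- hosts, and at 49.0 CPM (32.5 to 70.8) against 6.00 CPM in those from WT hosts, log2 ratios of 3.69 (2.13 to 5.41) and 3.03 (2.01 to 4.14). Of its UMIs 11 of 17 and 28 of 40 lay in that class. Not one was found in the 79 and 152 cells with Foxp3 or Il1rl1, where 3 counts would be a share of 3.80% and 1.97% of cells or 3.75 and 2.16 CPM, while the remaining cells were at 21.9 and 33.8 CPM. The type 2 cytokine class was at 0 UMIs too, in 57 and 137 cells. The cells with Foxp3 or Il1rl1 were deeper (medians of 8506 and 7943.5 UMIs) than the rest (7245 and 4814.5).

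Cells with Klrk1 had a level of Ccl5, a chemokine of type 1 and cytotoxic T cells, of 1833 CPM in the MARCH1-/- host library and 1726 CPM in the WT host library, against 5.17 and 62.4 CPM in cells without Klrk1. It was seen in 4 of the 7 and 6 of the 16 cells, and 1 cell held 27 of the 52 and 45 of the 98 UMIs. Hcst, which encodes the NKG2D adaptor DAP10, was at 705 and 757 CPM in cells with Klrk1, against 171 and 344 CPM in those without, while Tyrobp, the other adaptor, had 1 UMI in each library. Gzmb was found in 0 of the 7 and 0 of the 16 cells with Klrk1, which allows shares of up to 42.9% and 18.8%, against 11.4% and 7.74% of cells without. Klrg1 was found in 0 and 1 of them, against 29.5% and 16.4% of cells without. So few cells cannot show whether these members avoid one another. Both Gzma UMIs of the WT host library, and its 1 Prf1 UMI, lay in cells with Klrk1. Cd8a had no UMI, Cd8b1 was at 0 in all cells with Klrk1, and Cd4 was seen in 5 of 7 and 16 of 16. A marker of another cell type was seen in 3 of the 7 and 1 of the 16, and its part in these values was not tested. They were shallow cells, with medians of 4040 and 3633.5 UMIs, against 8286 and 6361 in cells without Klrk1.

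Serpinb9, which inhibits granzyme B, and Serpinb6b were low. Serpinb9 had 19 UMIs in 15 of 156 cells from MARCH1-/- hosts and 42 UMIs in 31 of 352 from WT hosts (12.1 and 16.3 CPM). Serpinb6b had 21 UMIs in 15 cells and 48 UMIs in 27 cells (13.3 and 18.7 CPM). Of the cells with Gzmb, 0 of 17 and 1 of 26 had Serpinb9, against 10.8% and 9.20% of cells without Gzmb. Serpinb6b was seen in 4 of 17 cells with Gzmb from MARCH1-/- hosts (23.5%) and 1 of 26 from WT hosts (3.85%), against 7.91% and 7.98% of cells without. In the regulatory class Serpinb9 was at 8.87 CPM against 12.6 CPM in other cells from MARCH1-/- hosts, and at 13.9 CPM against 16.7 CPM in those from WT hosts, with intervals of the ratio that included 0. Serpinb6b was lower in the type 2 cytokine class than in other cells from WT hosts, at 8.90 and 27.7 CPM (log2 ratio -1.64, -2.76 to -0.64), and at 9.96 and 16.0 CPM in those from MARCH1-/- hosts (-0.69, -2.24 to 0.72). Of the 3' end of Serpinb6b 2.74% is shared with Serpinb6c and Gm8436, while no such sharing was found for the other members.

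Gzma and Gzmk, which encode granzymes of the tryptase kind, were close to 0. Gzma had 0 UMIs in the 156 cells from MARCH1-/- hosts, where 3 counts would be 1.90 CPM or 1.92% of cells, and 2 UMIs in 2 of the 352 cells from WT hosts. Gzmk had 1 UMI in each library. Perforin was as rare: Prf1 had 3 UMIs in the MARCH1-/- host library and 1 in the WT host library, and 1 cell with Gzmb, from MARCH1-/- hosts, also had Prf1. Of the other 7 granzyme genes listed, Gzmd, Gzme, Gzmg, Gzmm and Gzmn were at 0 in both libraries, Gzmc had 0 and 1 UMI, and Gzmf 1 and 0. Gzmb was thus the one granzyme gene of those listed with more than 2 UMIs in either library.

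Members were also set beside all 7082 genes seen in at least 5% of the cells of each library, by Pearson correlation of log(1 + UMIs per 10000) over the 156 and 352 cells. These are descriptions over cells of 1 library, which share depth and cell state. The genes most like Gzmb were Foxp3 (r of 0.48 in the MARCH1-/- host and 0.45 in the WT host library), Klrg1 (0.32 and 0.27) and Ikzf2, the regulatory T cell factor Helios (0.28 and 0.27). Those most like Klrg1 were Foxp3 (0.41 and 0.34), Glrx, a glutaredoxin (0.34 and 0.30), and Gzmb. Those most like Nkg7 were S100a6, a calcium-binding protein (0.47 and 0.33), the lysosomal protease Ctsd (0.32 and 0.30) and the actin capping protein Capg (0.33 and 0.27). Those of Serpinb6b were sparse, with Ints12 (0.31 and 0.23), Mbp and Slamf6 the most like.

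In pairs, Klrg1 was seen in 10 of 17 cells with Gzmb and 24.5% of those without from MARCH1-/- hosts, and in 12 of 26 and 13.5% from WT hosts. Foxp3 was seen in 8 of 17 cells with Gzmb and 11.5% of those without, and in 17 of 26 and 8.90%. Il13 was at 45.7 CPM in cells with Gzmb, against 357 CPM in those without from MARCH1-/- hosts, and at 141 CPM against 844 CPM in WT hosts. Cells with Klrg1 had Il13 at 164 CPM, against 394 CPM in cells without from MARCH1-/- hosts, and at 1072 CPM against 712 CPM in WT hosts. The direction for Klrg1 thus differed between the libraries, and that difference was not tested.

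Beyond the members, 82 genes of granules, granzyme processing, clade B serpins, NK receptors, their regulators and the ligands of both receptors were listed, and 78 are in the tables. Of these 35 had no UMI, 16 had 1 to 19, and 27 had at least 20 over both libraries. Of the 27, 14 were higher and 13 lower in cells from MARCH1-/- hosts, with a median log2 ratio of 0.06 against 0.25 for all tested genes. Against the median gene 11 of the 27 lay above and 16 below.

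Srgn, the serglycin core of granules, was at 2025 and 1590 CPM and was seen in 99.4% and 94.9% of cells, while the 7 processing and release genes were seen in 12.8% to 48.1% and in 15.1% to 31.2%. Of these 7, 3 lay above the median gene and 4 below, and 6 had ratios above 0, among them Ctsc, the protease that activates granzymes (109 and 63.0 CPM, log2 ratio 0.79, 0.47 to 1.11), and Stx11, a syntaxin of granule fusion (91.4 and 46.3 CPM, 0.98). Rab27a, the GTPase that docks granules, was at 34.9 and 22.9 CPM (0.61, 0.05 to 1.16), while Cst7, Unc13d and Stxbp2 had intervals that included 0. Ctsw, a cathepsin of killer cells, was the lower one, at 20.9 and 47.8 CPM (-1.19, -1.79 to -0.63). Fasl and Tnfsf10 (TRAIL), the death ligands, were at ratios of -0.48 and -0.27, with intervals that included 0. Of the other serpins Serpinb6a was at 110 and 89.8 CPM and Serpinb1a at 9.52 and 14.4 CPM.

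Among 26 NK receptors and adaptors 13 had no UMI and 11 had at most 19. The remaining pair went opposite ways: Hcst was at 181 and 353 CPM (-0.96, -1.16 to -0.77) and Cd226 (DNAM-1) at 85.0 and 44.0 CPM (0.95, 0.58 to 1.33), of which 32 of 134 UMIs in the MARCH1-/- host library lay in 1 cell. Of 11 measured regulators 8 were lower and 3 higher, with 4 intervals below 0 and 3 above it. Against the median gene 3 lay above and 8 below. The share of all genes that were lower was not set beside this count. The lower ones included Il2ra, the interleukin 2 receptor alpha chain (168 and 322 CPM, -0.94), and Stat4, which carries the interleukin 12 signal (102 and 148 CPM, -0.55). Runx3 (70.5 and 92.2 CPM, -0.39) and Il2rb (131 and 174 CPM, -0.40) were lower too. Stat5a was higher, at 26.7 and 11.3 CPM (1.24, 0.52 to 1.98), as were Id2 (400 and 312 CPM, 0.36) and Hopx (105 and 79.0 CPM, 0.41). Tbx21, the type 1 factor T-bet, had 15 and 27 UMIs, and Eomes and Zfp683 had none. Prdm1, Zeb2 and Bhlhe40 had intervals that included 0. Of the receptor ligands Ulbp1, a ligand of mouse NKG2D, was at 16.5 and 8.17 CPM (26 and 21 UMIs; 1.01, 0.13 to 1.92).

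**Figure D5:**
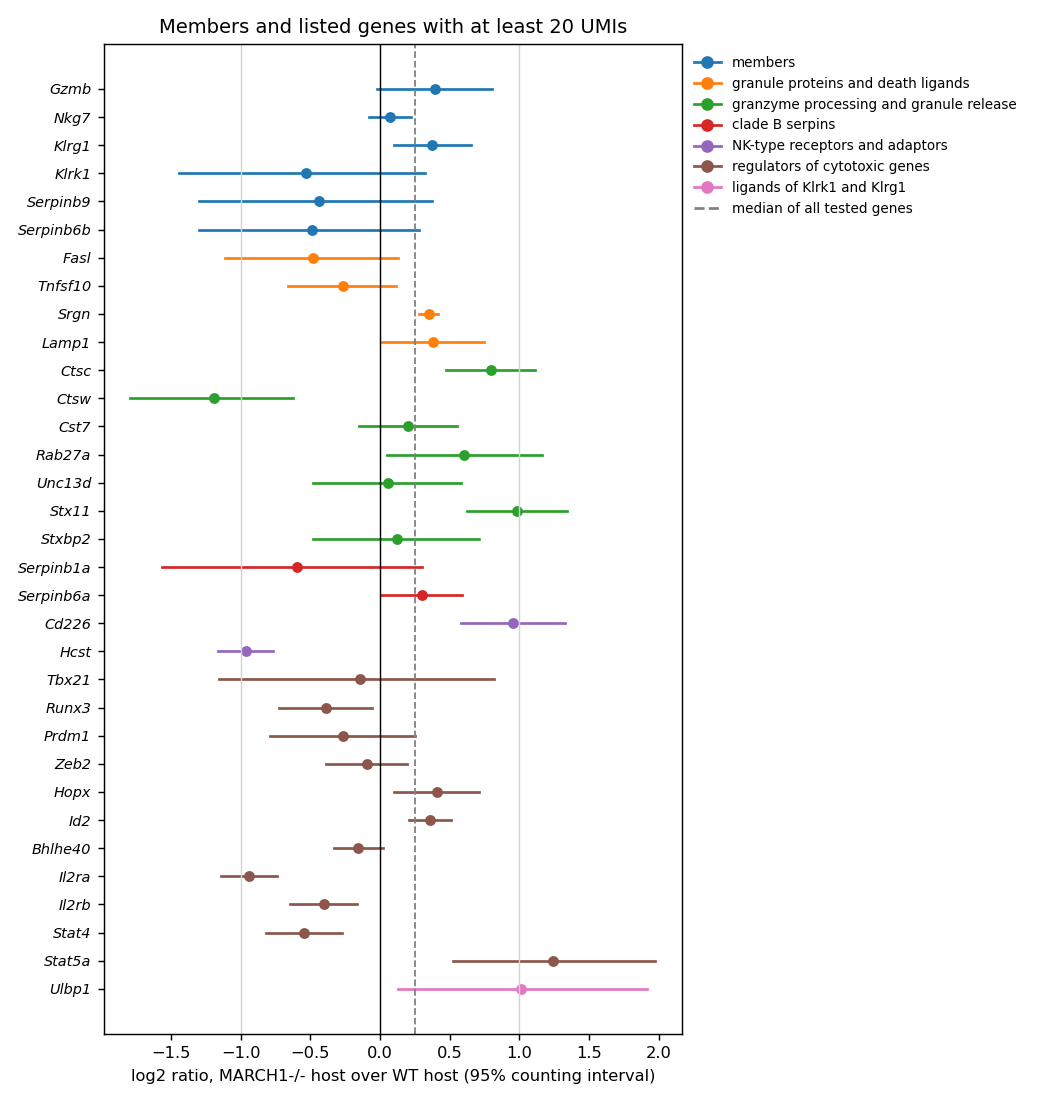
Log2 ratio of MARCH1-/- host over WT host over all cells, with 95% counting intervals, for the 6 members and 27 listed genes with at least 20 UMIs, coloured by list. The black line marks no difference, the grey lines 2-fold, and the dashed line the median of all tested genes at 0.25; Ctsw lies beyond 2-fold on the lower side and Stat5a and Ulbp1 on the higher.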

How the data were processed

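The 2 single-cell libraries came from a 10x 3' kit of chemistry v3.1, per the labels' protocols. The authors deposited raw UMI counts, 1 whole number for each gene in each barcode, without normalization. The submitters' processing notes name Cell Ranger 3.1.0 and mm10; per the file headers the program was version 4. No source used here gives the annotation.

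From these counts, cells were called by the filters given above and doublets kept. UMIs were summed over cells and scaled to CPM. Sums carry exact Poisson, ratios exact conditional binomial, and shares Clopper-Pearson 95% intervals, for counting error only. Thinning to 1000 UMIs used 1 seeded draw and left out 0 and 11 cells. Genes needed at least 50 UMIs to be counted, and a floor of 3 counts was used for genes at 0. The ratio code was tested on simulated data. Gene lists and members were chosen with earlier results of these data known. All members, every listed gene with at least 20 UMIs and the 3 most correlated genes of each member seen in at least 5% of cells were named; a further helper-marker class and the genes most correlated with 1 member are not reported here, and other genes were named for their low counts or their part in a comparison. Alternatives were other cell filters, doublet removal with Scrublet in scanpy 1.11.5, other scalings, thinning, and leaving out cycling, highest or marker-positive cells. Sums and intervals were computed in Python 3.11.15 with scipy 1.17.1 and numpy 2.4.6, tables handled with pandas 2.3.3, and figures drawn with matplotlib 3.10.9. Positions came from GENCODE M21 and promoter sequences from RefSeq.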

Additional observations from a re-analysis of the deposited data

Results flagged for a closer look

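The level of Gzmb in the type 1 class stood in opposite directions in the 2 libraries. Against other cells it had a log2 ratio of 0.89 (0.08 to 1.64) in cells from MARCH1-/- hosts, from 19 UMIs in 4 of 22 cells, and of -2.12 (-3.46 to -1.02) in cells from WT hosts, from 7 UMIs in 2 of 77 cells. The difference was not tested. Of the type 1 class 6 of 22 and 5 of 77 cells also had Foxp3. In the MARCH1-/- host library cells with Foxp3 held 11 and 5 of the 19 Gzmb UMIs, and in the WT host library 6 of the 7 lay in 1 such cell. The part of those cells in the difference was not tested.

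Members were also detected in barcodes left out for a mitochondrial share over 10%, which enter no comparison. Above the floor of 3 counts, Nkg7 had 7 UMIs in the 26 such barcodes of the MARCH1-/- host library and 22 in the 73 of the WT host library, or 230 and 282 CPM. In the WT host library Klrg1 had 6 UMIs and Gzmb 4. In the MARCH1-/- host library both were at 0.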

How the results depend on the processing

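No paired analysis was possible because the labels give no replicate numbers and each group is 1 library. With 1 library per group no ratio here can be set against the spread between animals. Gzmb and Klrk1 rest on few cells, and members under 20 UMIs allow no ratio.

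Of the 112 values of members and their sums between hosts under an alternative 91 stayed within the counting interval of the value given. The Nkg7 ratio between hosts in the ST2 class (1.18) was put through no alternative. Of the ratios that were, only Gzmb in cells without Foxp3 (log2 ratio 1.38) was past 2-fold as given, and it did not change sign. Smaller ratios did. Over all cells Nkg7 kept its sign under 8 of 10 alternatives and Serpinb6b under 9 of 10. The other members with at least 50 UMIs kept theirs under all 10. Thinning to 1000 UMIs moved Gzmb to 0.94, Nkg7 to 0.28, Klrg1 to 0.82, Serpinb6b to 0.45 (5 and 8 UMIs, the opposite direction) and the granzyme sum to 0.85. Leaving out cycling cells moved Gzmb to 1.01, Nkg7 to 0.33, Klrg1 to 0.89 and the sum to 0.99. Equal weight per cell moved Klrg1 to 0.95. Without the 5 cells with the most UMIs of the gene, Nkg7 was at -0.11 and Klrk1 at -2.37 (2 and 17 UMIs). The number of members past 2-fold was 1 without cycling cells (Gzmb), 1 without those 5 cells (Klrk1) and 2 without cells with a marker of another cell type (Klrk1 and Serpinb6b). No share of all genes past 2-fold under these alternatives was set beside the counts. They are thus no result about the members. Other cell filters, Scrublet (1 and 14 doublets) and scaling without ribosomal and mitochondrial genes left these values within their intervals; Nkg7 was at -0.02 under that scaling.

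Of the 289 class ratios under an alternative 241 stayed within their intervals and none past 2-fold changed sign. Between 8 and 9 levels were at least 2-fold higher in a class (8 of 30 as given) and between 6 and 8 lower (7 as given). Those of Gzmb and Klrg1 in the regulatory and ST2 classes were past 2-fold under all 10 alternatives in both libraries. No alternative left cells with Foxp3 out of the ST2 class. Leaving out the single highest cell, the highest cell of those compared, and the Klrg1 shares without cycling or Foxp3 cells, were chosen after seeing the data. The cause of each shift was not tested.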
